A study of Homo sapiens with 24 samples.

Results

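HEK293T and A549 cells were compared across every plasmid of the overexpression experiment. HEK293T is a human embryonic kidney line that carries adenovirus sequence and the large T antigen of a simian virus, and A549 is a line from a human lung adenocarcinoma. All 24 of the 24 libraries of the series entered the comparison, chosen by the cell line in their labels: 12 from HEK293T and 12 from A549. In each line, 3 replicates were transfected with each of 4 plasmids and collected after 48 h. The plasmids expressed snaR-A (a small noncoding RNA) or a scrambled version of it, named scramble, from a U6 promoter, or SF3B2 (a protein of the U2 snRNP, a core splicing particle) or eGFP from an expression vector. Every library therefore came from transfected cells, and no untransfected culture was analysed here. HEK293T was grown in DMEM and A549 in F-12K medium, so cell line, medium and culture cannot be told apart. The replicates are transfected cultures of 1 stock per line, and each p-value measures the spread between such cultures only.

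Cultured lines keep part of the expression program of the tissue they came from and lose other parts of it. HOX genes record the position of a cell along the body axis, lineage transcription factors hold a cell type in place, and keratins, integrins and laminins define an epithelial cell and its attachment. HEK293T cells are known for a loosely attached shape, for transcripts typical of early kidney and neurons, and for weak sensing of foreign nucleic acids. A549 cells grow as an adherent epithelial sheet and are known for strong expression of detoxifying enzymes driven by the NRF2 pathway, and for a deletion around CDKN2A. Neither genotype was measured here.

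Levels are given in CPM, counts scaled to a fixed library size, after TMM scaling, which sets the libraries to a common scale from the bulk of their genes. A series of 3 values is the lowest, the median and the highest of the 12 libraries of a line. The log2 fold change is HEK293T over A549, so positive values are higher in HEK293T. The test was edgeR's quasi-likelihood test, fitted to all 24 libraries with plasmid as a covariate, with Benjamini-Hochberg adjustment. To pass the threshold, a gene needed a log2 fold change beyond 1 or -1 as well as an adjusted p below 0.05. In bulk RNA, fewer cells expressing a gene and less RNA of it per cell cannot be told apart.

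The libraries held 195185935 to 259704563 counts in HEK293T and 214482286 to 260878271 in A549, so depth overlapped between the lines. The limit that a 0 sets is 3 counts, or 0.0115 to 0.0154 CPM of the library totals before TMM scaling, for counting error only. On the TMM scale of the levels, 3 counts are at most 0.0136 CPM in HEK293T and 0.0165 CPM in A549. Cell line accounted for 83.69% of the variance of log2 CPM, plasmid for 3.31%, their combination for 3.40% and replicates for 9.61%. Spearman correlations across genes, which are not independent replicates, were at least 0.969 within HEK293T, at least 0.983 within A549 and at most 0.881 between the lines. The SF3B2 plasmid libraries held 24055 to 48888 CPM of SF3B2 in both lines, and the counts can include plasmid sequence. HEK293T eGFP replicate 3 and A549 scramble replicate 3 stood apart. The first held genes of A549 at 3.66% of their A549 level, against 0.0173% to 0.134% in the other HEK293T libraries, of which SF3B2 replicate 3 was the highest. The second held 8773 CPM of SF3B2, against 372 and 340.1 CPM in the other A549 scramble libraries. One label field of A549 snaR-A replicate 3 names the other line, but its correlations were 0.984 or more with A549 and 0.880 or less with HEK293T, and it was kept in A549.

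The threshold was passed by 12283 of 25923 genes (47.4%), 6398 of them (24.7%) higher in HEK293T and 5885 (22.7%) higher in A549. In 13562 genes (52.3%) the 12 libraries of one line did not overlap the 12 of the other, and 9467 of these also passed the threshold. A median level of at least 1 CPM was found for 14251 genes in HEK293T and 13960 in A549, of which 12659 were shared. Extreme differences were less frequent: 1164 genes in HEK293T and 1219 in A549 passed with a log2 fold change beyond 5. Among 8277 protein-coding genes at 10 CPM or more in both lines, 1836 (22.2%) passed. Without HEK293T eGFP replicate 3 and A549 scramble replicate 3, 12143 of the 12283 genes still passed in the same direction. The split between directions depended on the scaling: with library totals alone, the median of all genes moved from 0.0081 to 0.47 (log2), and 8885 genes passed higher in HEK293T against 4405 in A549, 66.9% of calls against 52.1%.

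**Figure D1:**
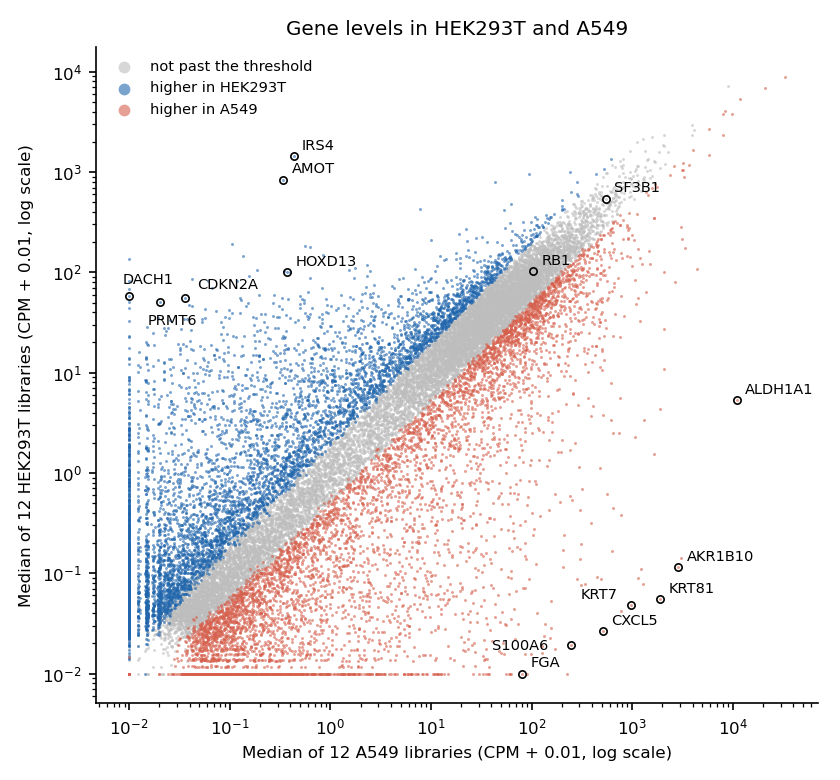
Median level of each tested gene in the 12 HEK293T libraries (vertical axis) against the 12 A549 libraries (horizontal axis), in CPM with 0.01 added, both axes on a log scale. Blue and red points passed the threshold, higher in HEK293T and in A549, and circled genes are described in the text. IRS4 and AMOT lie at 1446 and 842 CPM in HEK293T and under 1 CPM in A549, and AKR1B10, KRT81 and KRT7 lie the other way round.

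The genes named here as on in HEK293T and close to 0 in A549 encoded signalling scaffolds, chromatin and RNA regulators and enzymes. Of the tested genes, 78 had a median of at least 10 CPM in HEK293T and under 0.05 CPM in A549. IRS4 (chrX:108719946-108736563, minus strand) encodes an insulin receptor substrate that links growth factor receptors to PI3 kinase. It was at 1088, 1446 and 1814 CPM in HEK293T and at 0.119, 0.422 and 1.0 CPM in A549. All HEK293T libraries were far above all A549 libraries, with a log2 fold change of 11.69 (standard error 0.26, edgeR adjusted p = 1.54e-21). Its antisense lncRNA IRS4-AS1 had 7.93, 11.4 and 20.2 CPM in HEK293T and 0, 0.017 and 0.0521 CPM in A549, and the kit marked strand. AMOT (chrX:112774503-112840831, minus strand), the scaffold angiomotin that binds the growth regulator YAP, held 750.3, 842 and 913 CPM in HEK293T and 0.198, 0.332 and 0.805 CPM in A549. The lines did not overlap (log2 fold change 11.16, standard error 0.20, edgeR adjusted p = 2.36e-23).

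MBNL3, a muscleblind-like regulator of splicing and RNA stability, stood at 63.4, 86.2 and 98.8 CPM in HEK293T and 0, 0.0319 and 0.299 CPM in A549. Its log2 fold change was 10.68, and 11.54 without A549 eGFP replicate 1, the A549 library in which it was highest. DACH1, a developmental transcription repressor, had 48.6, 57.8 and 70.7 CPM in HEK293T and 0, 0 and 0.0795 CPM in A549, where 7 of 12 libraries were at 0 (log2 fold change 12.09, and 12.86 without A549 scramble replicate 1). PRMT6 (chr1:107056674-107067636, plus strand), a methyltransferase for arginines of histone H3, was at 48.1, 50.6 and 53.6 CPM in HEK293T and 0.00473, 0.0104 and 0.0255 CPM in A549. That was a narrow range in HEK293T and every A549 library was under 0.05 CPM (log2 fold change 11.94, standard error 0.11, edgeR adjusted p = 3.62e-28). Its neighbours did not share this: of 29 protein-coding genes between 105 and 110 Mb of chromosome 1, 8 passed higher in HEK293T and 5 in A549, a region looked at after the values were seen. AGPAT1 and TAP2, both in the MHC on chromosome 6, also met the rule, and their zeros in A549 are uncertain for the reason given with the zeros further on. AGPAT1 had 59.2, 68.5 and 83.3 CPM in HEK293T and 0, 0 and 0.0901 CPM in A549, and TAP2 had 38.5, 43.9 and 48.9 CPM in HEK293T and 0 in all 12 A549 libraries.

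In A549, the corresponding genes named here encoded keratins, reductases, a chemokine and membrane or calcium-binding proteins. There were 117 genes with a median of at least 10 CPM in A549 and under 0.05 CPM in HEK293T. KRT81 (chr12:52285913-52291534, minus strand), a hair-type keratin, was at 1556, 1909.6 and 2011 CPM in A549 and at 0.00821, 0.0449 and 56.2 CPM in HEK293T. The HEK293T maximum was eGFP replicate 3, and the highest of the other 11 libraries had 0.666 CPM. Its log2 fold change was -12.60 (standard error 1.48, edgeR adjusted p = 4.26e-08) and -14.16 without that library. Of the 31-base words of its transcripts, 53.2% occur in another gene, so related keratins may share its reads. KRT7 (chr12:52232520-52252186, plus strand), a keratin of simple epithelia, held 910.1, 975 and 1132 CPM in A549 and 0.0129, 0.0381 and 36.3 CPM in HEK293T, and its log2 fold change was -11.54, or -13.06 without eGFP replicate 3.

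HEK293T eGFP replicate 3 also set the HEK293T maximum of TM4SF1, CXCL5 and S100A6, and it stayed below all 12 A549 libraries. TM4SF1, a membrane protein of the tetraspanin type, had 726, 782 and 931 CPM in A549 and 0.0112, 0.0318 and 32.3 CPM in HEK293T (log2 fold change -11.11, or -12.64 without that library). CXCL5, a chemokine that attracts neutrophils, had 475, 515 and 773 CPM in A549 and 0.00332, 0.0165 and 18.1 CPM in HEK293T (log2 fold change -11.10, or -12.92 without it). The calcium-binding protein gene S100A6 had 229, 245 and 277 CPM in A549, while 5 HEK293T libraries were at 0 and eGFP replicate 3 had 13.8 CPM (log2 fold change -10.22, or -12.55 without it). These fitted changes rest on low HEK293T counts. For KRT7, AKR1B10, TM4SF1 and AKR1C3, HEK293T SF3B2 replicate 3 was the next highest library, and without it the changes were -12.25, -13.12, -12.10 and -12.21.

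**Figure D2:**
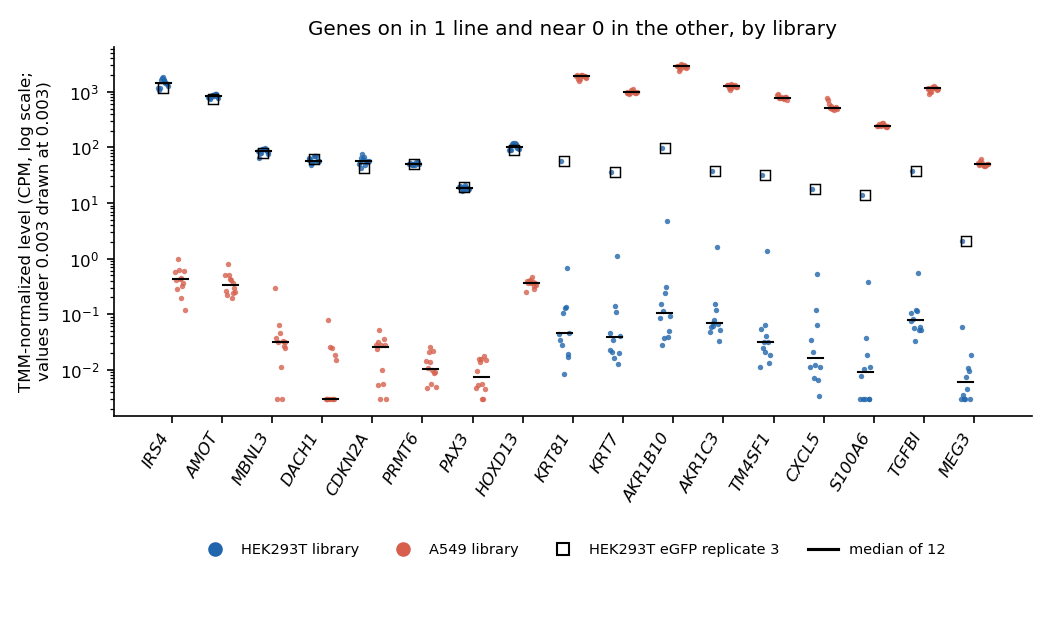
TMM-normalized level in every library of 17 genes that were on in 1 line and near 0 in the other (CPM on a log scale, values under 0.003 drawn at 0.003). Each dot is a library, blue for HEK293T and red for A549, bars are medians of 12 and the open square is HEK293T eGFP replicate 3. That library lies with the other HEK293T libraries for the first 8 genes and above them for the 9 genes of A549, where KRT81 reached 56.2 CPM.

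The promoters of 4 on and off genes are shown because the small sets they come from differed in CG pairs. Bases came from RefSeq on GRCh38.p14, as the 250 bases before the annotated start, read 5′ to 3′ on the gene's strand. Capitals mark CG pairs, the bases at which promoters are methylated. FGB (fibrinogen beta chain, chr4:154562730-154562979, plus strand) and GPX2 (a glutathione peroxidase of epithelia, chr14:64942746-64942995, minus strand) were on in A549. DACH1 (chr13:71867205-71867454, minus strand) and PRMT6 (chr1:107056424-107056673, plus strand) were on in HEK293T.
FGB: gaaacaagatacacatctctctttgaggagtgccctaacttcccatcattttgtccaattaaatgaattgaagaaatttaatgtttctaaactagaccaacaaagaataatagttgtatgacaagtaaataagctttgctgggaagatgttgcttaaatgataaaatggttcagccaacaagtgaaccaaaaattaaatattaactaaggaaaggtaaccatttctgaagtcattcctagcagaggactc
GPX2: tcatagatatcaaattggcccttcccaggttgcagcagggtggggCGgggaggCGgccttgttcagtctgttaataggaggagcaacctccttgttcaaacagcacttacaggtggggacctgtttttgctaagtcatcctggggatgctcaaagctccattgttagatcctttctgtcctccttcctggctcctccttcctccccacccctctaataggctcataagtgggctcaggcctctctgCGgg
DACH1: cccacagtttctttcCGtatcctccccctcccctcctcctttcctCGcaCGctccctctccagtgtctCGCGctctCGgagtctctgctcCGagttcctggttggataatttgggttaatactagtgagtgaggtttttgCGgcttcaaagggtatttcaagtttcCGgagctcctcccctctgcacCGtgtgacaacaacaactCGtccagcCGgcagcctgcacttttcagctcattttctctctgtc
PRMT6: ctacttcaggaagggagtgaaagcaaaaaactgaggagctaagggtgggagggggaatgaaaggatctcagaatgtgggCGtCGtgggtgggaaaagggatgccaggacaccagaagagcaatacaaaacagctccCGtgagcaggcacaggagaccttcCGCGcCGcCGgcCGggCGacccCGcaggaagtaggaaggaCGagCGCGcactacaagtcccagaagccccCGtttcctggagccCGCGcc
Letters were counted over windows of 300 bases (250 before to 50 after the start, both strands searched). The sets were promoters of genes at 1 CPM or more: 2200 higher in A549, 2167 higher in HEK293T and 11163 of tested genes. The AP-1 letters TGANTCA were in 7.64%, 3.83% and 4.50% of them. For the antioxidant response element core TGACNNNGC, a binding sequence of NRF2, the shares were 14.8%, 12.8% and 14.9%. Over all 27305 promoters, at any level, the shares were 7.76% for AP-1 and 13.6% for the element core. In the 64 promoters of genes on in A549 and off in HEK293T they were 4.69% and 17.2%, and in the 54 of the opposite kind 1.85% and 9.26%. Matches of other motifs were counted and are not reported here. CpG pairs were at a median of 0.391 of the number expected from base content in the 64 promoters of genes on in A549 and off in HEK293T. The median was 0.732 in the 54 of the opposite kind and 0.839 in tested genes at 1 CPM or more. These 64 and 54 promoters do not cover all of the 117 and 78 genes counted above. Over the larger sets of genes past the threshold, the medians were close, at 0.770 for 2200 genes higher in A549 and 0.804 for 2167 higher in HEK293T. In the bases shown, PRMT6, DACH1, GPX2 and FGB had 16, 12, 3 and 0 CpG pairs. Their ratios over the 300 bases were 0.855, 0.615, 0.187 and 0. FGB and GPX2 thus lay below the median of their small set, PRMT6 lay above that of its set and DACH1 below it. These matches describe letters in the window and were not tested.

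For the programs below, 26 gene lists were described by their counts past the threshold and their median log2 fold change. The values to read them against are the 24.7% and 22.7% of all tested genes that passed in each direction, and a median of 0.0081. For lists of well-expressed genes a lower share applies. Of protein-coding genes at 10 CPM or more in both lines, 22.2% passed, both directions together. The lists with the highest medians were HOX genes, neuronal genes and kidney development genes, and the lowest was the aldo-keto reductases. With library totals as the scale, all 26 medians moved up, and those of the lung, aldehyde dehydrogenase, proliferation and RNA polymerase II lists changed sign, to 0.13, 0.27, 0.39 and 0.14. DESeq2 gave no adjusted p to 369 genes, 305 of them past the threshold in edgeR and higher in A549. Its A549 counts for some lists are therefore lower, and the members without a value are given beside most of these lists. In the kidney, mesenchymal, cancer-testis and RNA polymerase III lists, 1 A549 call each had no adjusted p. The transcription factor and splicing regulator lists had 1 such HEK293T call each.

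**Figure D3:**
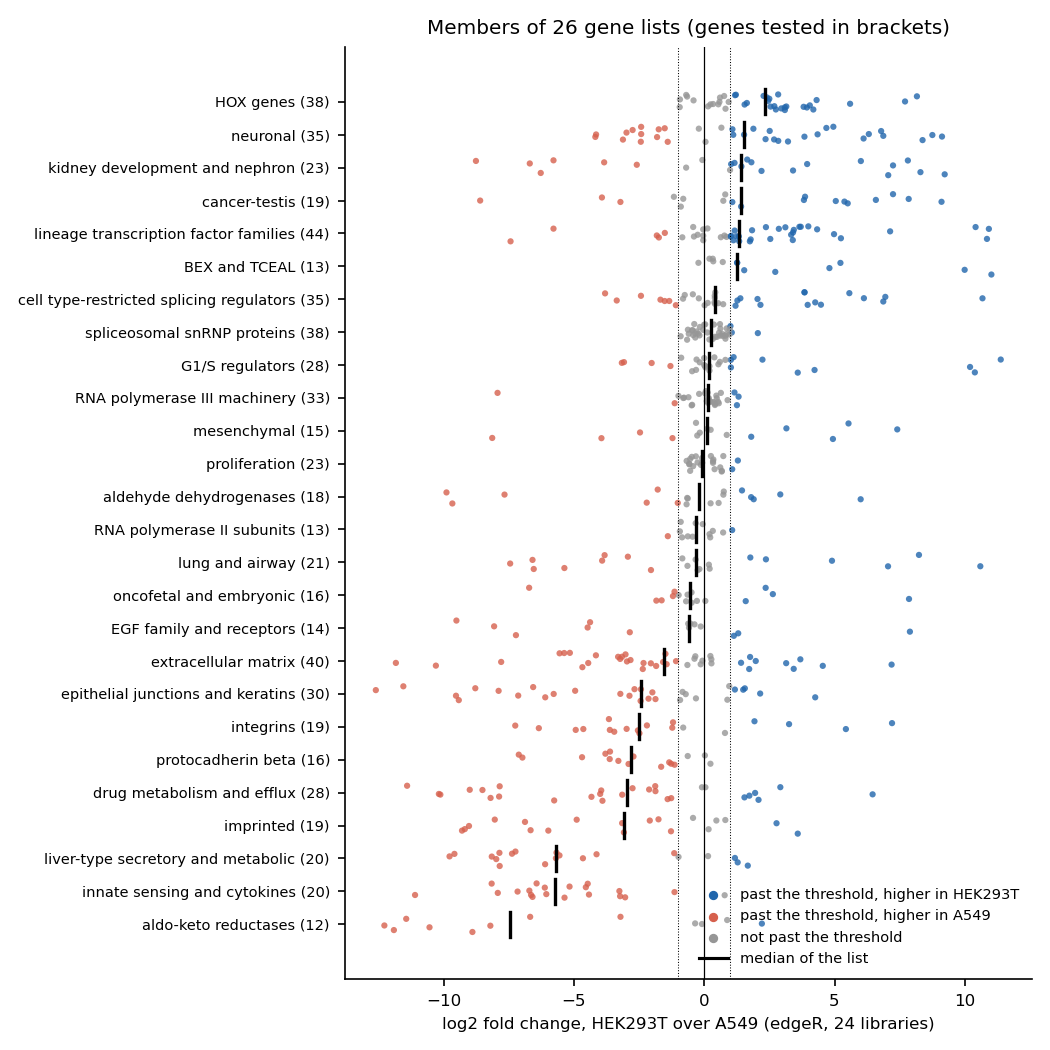
Log2 fold change of HEK293T over A549 (horizontal axis) for each tested member of 26 gene lists, ordered by the list's median (black bar), with the number of genes tested in brackets. Blue and red points passed the threshold, grey points did not, and dotted lines mark -1 and 1. HOX genes have 24 blue and 0 red points, innate sensing and cytokine genes 0 blue and 19 red, and nearly all proliferation genes are grey.

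HOX genes leaned to HEK293T. Of 39, 38 were tested and 24 passed higher in HEK293T, with a median log2 fold change of 2.34. None passed higher in A549 by edgeR, by exactTest or by DESeq2, but 1 did without A549 eGFP replicate 1 or 2 or HEK293T SF3B2 replicate 1, and 5 were higher there at an unadjusted p under 0.05, with changes inside the threshold. HOXD13, the last gene of the HOXD cluster and a limb and urogenital patterning factor, was at 90.4, 101 and 122 CPM in HEK293T and 0.246, 0.365 and 0.474 CPM in A549. The lines did not overlap (log2 fold change 8.16, standard error 0.08, edgeR adjusted p = 3.73e-28). HOXA9 had 53, 59.1 and 88.2 CPM in HEK293T and 1.02, 1.27 and 1.64 CPM in A549, and 13.8% of its sequence words occur in another gene. Genes of the posterior groups were among the largest changes, with log2 fold changes of 4.19 for HOXA11, 4.05 for HOXD11 and 3.81 for HOXD10. HOXB3 overlapped between the lines, at 17.9, 21.2 and 26.1 CPM in HEK293T and 17.8, 18.9 and 21.4 CPM in A549 (log2 fold change 0.15).

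Among 52 SOX, GATA, PAX, ZIC, LHX and TFAP2 transcription factor genes, 44 were tested, 28 passed higher in HEK293T and 5 higher in A549, with a median of 1.34. PAX3, a neural crest and muscle precursor factor, had 16.6, 18.8 and 20.7 CPM in HEK293T and 0, 0.00748 and 0.0176 CPM in A549 (log2 fold change 10.92). It was on in all HEK293T libraries and at or near 0 in A549. SOX9, a factor of many epithelial progenitors, went the other way, at 9.09, 10.1 and 11.9 CPM in HEK293T and 29.7, 35 and 43.4 CPM in A549 without overlap (log2 fold change -1.82). LHX2 overlapped between the lines, at medians of 3.59 and 4.0 CPM.

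Genes of kidney development were more often higher in HEK293T. Of 25 kidney genes, 23 were tested, 14 passed higher in HEK293T and 6 higher in A549, with a median of 1.43. EMX2, needed for the early kidney, was at 8.26, 9.55 and 13.2 CPM in HEK293T and 0, 0.0163 and 0.0496 CPM in A549 (log2 fold change 9.23). The nephron progenitor genes CITED1, EYA1, SIX2 and SALL1 had HEK293T medians of 45.8, 6.95, 15.1 and 38.3 CPM and A549 medians of 0.135, 0.0267, 0.126 and 0.615 CPM. Their log2 fold changes lay between 6.01 and 8.30, and 35.3% of the sequence words of CITED1 are shared with other genes. WT1 did not differ by more than its spread, at 6.71, 7.34 and 7.97 CPM in HEK293T and 6.9, 7.44 and 8.88 CPM in A549 (log2 fold change -0.07, edgeR adjusted p = 0.129).

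The marker lists of the labelled tissues were checked in the same way. For kidney, PAX2 and LRP2 were higher in HEK293T (medians of 3.54 and 14.9 CPM against 0.34 and 0.0589 CPM). PAX8, CDH16 and NPHS1 were lower in HEK293T, at 0.016, 0 and 0.12 CPM against 1.03, 0.172 and 1.58 CPM, and UMOD and AQP2 were at a median of 0 in both. The sum of the 7 markers lay between 14.0 and 33.8 CPM in HEK293T and between 2.74 and 3.94 CPM in A549. For lung, the defining surfactant genes were near 0 in both lines, with A549 medians of 0.0242 CPM for SFTPC, 0.0415 CPM for SFTPB and 0 for SFTPA1. NKX2-1, the lung and thyroid factor, was at 3.97, 4.81 and 7.72 CPM in HEK293T and 0, 0.0161 and 0.0441 CPM in A549, so it was higher in the kidney line, and 31.8% of its words are shared with other genes. AGER was also higher in HEK293T, at medians of 1.08 and 0.0178 CPM. It lies in the MHC, and its zeros in A549 are uncertain for the reason given with the zeros further on. SFTPC had a log2 fold change of -2.93. Of the 7 lung markers, 5 were tested, and 2 passed higher in HEK293T and 1 higher in A549. Together the 7 summed to 6.30 to 10.6 CPM in HEK293T and 0.977 to 1.45 CPM in A549. All 6 epithelial markers passed higher in A549 by edgeR, and 3 by DESeq2, which gave the other 3 no adjusted p (summed level 4592 to 5687 CPM, against 37.9 to 52.4 CPM in HEK293T without eGFP replicate 3 and 236 CPM in that library).

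Markers of other cell types were low. PTPRC, CD3E and HBB were too low to test, and the 10 markers of blood, vessel and stroma cells summed to 4.32 to 6.77 CPM in HEK293T and 17.7 to 57.2 CPM in A549. CD68, a lysosomal protein gene of macrophages, made up most of the A549 sum, at 15.3, 23.5 and 54.3 CPM against 0.0961, 0.188 and 0.831 CPM in HEK293T, and 77.1% of its words occur in another gene. DCN was higher in HEK293T and CDH5 in A549, both under 1 CPM, and LUM, PECAM1 and VWF did not pass. The part of other cell types in the line difference was not tested.

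Lung and airway genes were split between the lines. Of 25 listed, 21 were tested, 6 passed higher in HEK293T and 8 higher in A549, with a median of -0.33 (0.13 with library totals, -0.51 without the libraries that stood apart). By DESeq2, 6 passed higher in A549, and the other 2 had no adjusted p there. FOXA2, a factor of gut tube derivatives, was at 30.3, 33.7 and 34.9 CPM in A549 and 0.0804, 0.111 and 1.63 CPM in HEK293T (log2 fold change -7.45, or -8.19 without eGFP replicate 3). TP63, a factor of basal cells, was at 12, 13.4 and 14.8 CPM in A549 and 0.0277, 0.112 and 0.962 CPM in HEK293T (log2 fold change -6.59). PDPN, a surface protein of flat alveolar cells, was in HEK293T at 23, 26 and 33.3 CPM and in A549 at 0, 0.0135 and 0.0446 CPM (log2 fold change 10.60). The gel-forming mucin gene MUC5B and the growth-signal target ETV5 were higher in A549, at medians of 5.87 and 79.6 CPM against 0.0354 and 1.69 CPM.

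Epithelial genes leaned to A549. Of 31 junction and keratin genes, 30 were tested, 19 passed higher in A549 and 5 higher in HEK293T, with a median of -2.43. By DESeq2, 11 passed higher in A549 and 6 in HEK293T, and the other 8 A549 calls had no adjusted p there. KRT8 and KRT18, the keratin pair of simple epithelia, were at 1952, 2095 and 2472 and at 1582, 2099.9 and 2316 CPM in A549. In HEK293T they were at 8.95, 10.7 and 103 and at 19.4, 27 and 87.6 CPM, with the maximum in eGFP replicate 3 and 13.7 and 29.7 CPM as the highest of the others. CDH1, the epithelial cadherin, had 37.9, 40.9 and 49.9 CPM in A549 and 4.58, 6.03 and 10.5 CPM in HEK293T (log2 fold change -2.67), and CLDN1, ELF3 and KRT80 had changes of -6.56, -9.52 and -9.42. The epithelial splicing regulator gene ESRP2 was higher in HEK293T, at 1.47, 1.93 and 2.36 CPM against 0.0331, 0.0801 and 0.23 CPM, and the protease inhibitor gene SPINT1 at 1.3, 1.82 and 3.63 CPM against 0.408, 0.666 and 0.896 CPM. OCLN did not pass, at medians of 28.3 CPM in HEK293T and 46.6 CPM in A549, although its libraries did not overlap.

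Mesenchymal genes were split: of 16, 15 were tested, 5 passed higher in HEK293T, 4 higher in A549, and the median was 0.12. PRRX1 and SNAI2, factors of mesenchyme and of cell migration, were higher in HEK293T, at 6.35, 7.79 and 10.8 and at 35.7, 40.6 and 54.1 CPM. In A549 they were at 0.0247, 0.0383 and 0.132 and at 0.718, 0.90 and 1.32 CPM, without overlap. S100A4, a calcium-binding protein of motile cells, was higher in A549 at 186, 239 and 272 CPM, against 0.38, 0.58 and 6.18 CPM in HEK293T (log2 fold change -8.13, or -8.76 without eGFP replicate 3). VIM was higher in A549, at medians of 807 and 329 CPM, while CDH2 and ZEB1 did not pass (log2 fold changes of -0.17 and 0.12).

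Matrix and integrin genes leaned to A549. Of 40 extracellular matrix genes, all tested, 23 passed higher in A549 and 9 higher in HEK293T, with a median of -1.53. By DESeq2, 20 passed higher in A549, and the other 3 had no adjusted p there. TGFBI, a matrix protein induced by TGF-beta, was at 901, 1148 and 1288 CPM in A549 and 0.0328, 0.0788 and 37.2 CPM in HEK293T (log2 fold change -11.83, or -13.28 without eGFP replicate 3). The laminin chains differed in kind: LAMA1 and LAMA4 were higher in HEK293T, at medians of 36.4 and 33.4 CPM against 0.26 and 1.59 CPM. LAMB3 and LAMA5 were higher in A549, at 12.9 and 180.2 CPM against 0.337 and 23.6 CPM. COL1A1 overlapped between the lines, at medians of 13.8 and 14.8 CPM.

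Of 19 integrin genes, all tested, 13 passed higher in A549 and 4 higher in HEK293T, with a median of -2.49. ITGA3, which pairs with ITGB1 to bind laminin, was at 383, 407 and 439.6 CPM in A549 and 3.08, 4.66 and 15 CPM in HEK293T (log2 fold change -6.35). ITGB6, a chain restricted to epithelia, had 4.5, 5.94 and 6.64 CPM in A549 and 0.00699, 0.0281 and 0.178 CPM in HEK293T, and ITGB1 itself had medians of 3045 and 286 CPM. ITGA8, of the developing kidney, had 8.28, 13.8 and 18.7 CPM in HEK293T and 0.0271, 0.0616 and 0.197 CPM in A549, and ITGA9 had a log2 fold change of 5.44. The 4 integrin genes higher in HEK293T were all alpha chains.

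Growth factors and receptors of the EGF family were split. Of 15, 14 were tested, 6 passed higher in A549 and 3 higher in HEK293T, with a median of -0.60 (-0.13 with library totals). By DESeq2, 3 passed higher in A549 and 2 in HEK293T, and 3 and 1 of the other calls had no adjusted p there. EREG, a ligand of the EGF receptor, was at 274, 314 and 405 CPM in A549 and 0.0525, 0.185 and 13.6 CPM in HEK293T (log2 fold change -9.51, or -10.60 without eGFP replicate 3). NRG1, a ligand of ERBB3 and ERBB4, had 304, 319 and 335 CPM in A549 and 0.498, 0.688 and 13.5 CPM in HEK293T (log2 fold change -8.06, or -8.79 without it). EGFR, the receptor, had medians of 469 CPM in A549 and 22.2 CPM in HEK293T. ERBB4, another receptor of the family, was higher in HEK293T, at 4.45, 6.62 and 7.78 CPM against 0, 0 and 0.261 CPM in A549, where 8 of 12 libraries were at 0 (log2 fold change 7.89, and 9.33 without A549 eGFP replicate 1). ERBB3 overlapped between the lines (log2 fold change -0.13).

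Neuronal genes were split by member. Of 37, 35 were tested, 20 passed higher in HEK293T and 12 higher in A549, with a median of 1.53. INSM1, a factor of neuroendocrine cells, was at 3.16, 3.74 and 6.37 CPM in HEK293T and 0, 0.00473 and 0.0232 CPM in A549 (log2 fold change 9.12). NCAM1, a neural adhesion molecule, was at 36.2, 42 and 61.4 CPM in HEK293T and 0.00441, 0.0893 and 0.223 CPM in A549 (log2 fold change 8.75). NEFM, a neurofilament subunit, had medians of 183 and 0.55 CPM. On the A549 side were SNAP25, a vesicle fusion protein, at 66, 72.8 and 84.3 CPM against 2.07, 4.25 and 8.61 CPM in HEK293T, and TUBB3, a neuronal tubulin, at 51.9, 61.5 and 75 CPM against 2.3, 3.54 and 5.45 CPM. TUBB3 shares 28.8% of its words with other genes. MAP1B, a microtubule-binding protein, had medians of 993 CPM in A549 and 117 CPM in HEK293T.

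The 16 oncofetal and embryonic genes were all tested, and 4 passed higher in HEK293T and 5 in A549 (median -0.56, or -0.10 with library totals, where 4 and 3 passed). TRIM71, a repressor of mRNAs in stem cells, was at 13.8, 16.8 and 18.5 CPM in HEK293T and 0.0465, 0.064 and 0.107 CPM in A549 (log2 fold change 7.86). LIN28B, which blocks let-7 processing, was at 131, 143 and 166 CPM in HEK293T and 20.3, 24.1 and 25.5 CPM in A549 (log2 fold change 2.63). AFP, a fetal liver protein, was near 0 in HEK293T and at 1.35, 1.82 and 2.1 CPM in A549, and TERT was at 0.94, 1.64 and 2.29 CPM in HEK293T and 2.67, 3.48 and 4.66 CPM in A549 (log2 fold change -1.20, or -0.73 with library totals, inside the threshold). IGF2BP3, an oncofetal RNA-binding protein, overlapped between the lines at 109 and 109.5 CPM.

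Imprinted genes, expressed from the copy of 1 parent, leaned to A549. Of 24, 19 were tested, 13 passed higher in A549 and 2 higher in HEK293T, with a median of -3.08. By DESeq2, 8 passed higher in A549, and the other 5 had no adjusted p there. The lncRNA MEG3 (chr14:100779410-100861031, plus strand) was at 46.1, 49.4 and 61 CPM in A549 and 0, 0.00604 and 2.11 CPM in HEK293T, where eGFP replicate 3 was the maximum and 0.0576 CPM the next value. Its log2 fold change was -9.29, and -12.22 without that library. SNRPN was at 47.5, 52.5 and 59.1 CPM in A549 and 0, 0.0102 and 2.23 CPM in HEK293T (log2 fold change -9.19, or -11.71 without it), and 38.7% of its words are shared. MEST and PEG10 had A549 medians of 56.1 and 476 CPM and HEK293T medians of 0.0208 and 1.11 CPM. PLAGL1, a zinc finger factor, was higher in HEK293T at 59.9, 63.3 and 75.9 CPM, against 8.02, 9.75 and 11.1 CPM in A549. KCNQ1OT1 overlapped between the lines, at medians of 16 and 15 CPM.

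Cancer-testis genes, silent in most adult tissue outside the germ line, mostly passed higher in HEK293T. Of 29, 19 were tested, 11 passed higher in HEK293T and 3 higher in A549 (median 1.42). Without the libraries that stood apart, 22 were tested, with 12 and 5. The count in A549 was 5 or 6 without any 1 of A549 eGFP 1, scramble 1, scramble 3, SF3B2 3 or snaR-A 1, or HEK293T scramble 3. MAGEB2 was at 3.23, 4.5 and 5.29 CPM in HEK293T and 0, 0.00914 and 0.0149 CPM in A549 (log2 fold change 9.11). The near-identical copies make single members uncertain, since 93.8% of the words of GAGE2A and all words of XAGE1A occur in other genes. XAGE1A was at 59.1, 62 and 72.4 CPM in A549 and 0, 0.0802 and 3.78 CPM in HEK293T, and GAGE2A had medians of 3.97 CPM in HEK293T and 0.0159 CPM in A549.

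The BEX and TCEAL genes lie together on the X chromosome and encode small regulators expressed in brain. Of 14, 13 were tested, 8 passed higher in HEK293T and 0 higher in A549, by edgeR, by exactTest and by DESeq2, with 1 higher in A549 at an unadjusted p under 0.05 (median 1.27). BEX1 was at 10.5, 14.2 and 19.7 CPM in HEK293T and 0, 0.00477 and 0.0164 CPM in A549 (log2 fold change 11.02), and BEX5 had a change of 9.99. TCEAL4 overlapped between the lines, at 132 and 118 CPM.

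Clustered protocadherins are adhesion proteins that give neurons their identity. All 16 protocadherin beta genes were tested, and 13 passed higher in A549 (median -2.81). By DESeq2, 12 passed higher in A549, and the other 1 had no adjusted p there. None passed higher in HEK293T by edgeR, by exactTest or by DESeq2, and 0 were higher there at an unadjusted p under 0.05. PCDHB5 and PCDHB6 were at 5.13, 5.72 and 6.48 and at 2.52, 3.27 and 3.61 CPM in A549. In HEK293T they were at 0.00384, 0.0202 and 0.458 and at 0.00373, 0.0159 and 0.11 CPM, and their words were shared at 19.8% and 20.7%. Of the neighbouring alpha and gamma clusters, looked at after the values were seen, PCDHAC2 had medians of 26.9 CPM in A549 and 0.010 CPM in HEK293T, while PCDHGC3 was higher in HEK293T, at 33.5 against 11 CPM.

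Aldo-keto reductases, which reduce carbonyl compounds, had the lowest median of the 26 lists. Of 12 aldo-keto reductase genes, all tested, 8 passed higher in A549 and 1 higher in HEK293T, with a median of -7.44. By DESeq2, 3 passed higher in A549, and the other 5 had no adjusted p there. AKR1B10 (chr7:134527567-134541412, plus strand), which reduces aldehydes and retinal, was at 2388, 2866 and 3196 CPM in A549 and 0.0277, 0.105 and 99.5 CPM in HEK293T. The HEK293T maximum was eGFP replicate 3 and the next value 4.76 CPM, and the log2 fold change was -11.91 (standard error 1.56, edgeR adjusted p = 2.31e-07) or -13.36 without that library. AKR1C2 and AKR1C3, which act on steroids, had A549 medians of 3076 and 1283 CPM and HEK293T medians of 0.133 and 0.0687 CPM, with changes of -12.27 and -11.44 (-13.60 and -12.85 without it). Their copies are similar: 45.5% of the words of AKR1C2 and 31.5% of those of AKR1B10 are shared. AKR1A1 overlapped between the lines, at 37.5 and 38.4 CPM.

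Of 19 aldehyde dehydrogenase genes, 18 were tested, and 5 passed higher in HEK293T and 6 in A549 (median -0.19, or 0.27 with library totals, where 8 and 5 passed). By DESeq2, 2 passed higher in A549, and 3 of the other 4 had no adjusted p there. ALDH1A1, which oxidizes retinal, was among the most abundant mRNAs of A549, at 10065, 11045 and 11752 CPM against 3.12, 5.34 and 422 CPM in HEK293T (log2 fold change -9.89, or -10.94 without eGFP replicate 3). ALDH3A1 had 455, 646 and 753 CPM in A549 and 0.346, 0.433 and 16.4 CPM in HEK293T (log2 fold change -9.66, or -10.53 without it). ALDH1A2, another enzyme of retinal oxidation, was higher in HEK293T, at 33.6, 37.1 and 56.2 CPM against 0.196, 0.573 and 0.931 CPM in A549 (log2 fold change 6.0).

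Among 28 drug metabolism and efflux genes, all tested, 20 passed higher in A549 and 6 higher in HEK293T (median -2.95). By DESeq2, 14 passed higher in A549, and the other 6 had no adjusted p there. CYP24A1, which inactivates vitamin D, was at 1113, 1216 and 1329 CPM in A549 and 0.0299, 0.101 and 41 CPM in HEK293T (log2 fold change -11.40, or -12.84 without eGFP replicate 3). ABCC3, an exporter of conjugates, was at 267, 285 and 323 CPM in A549 and 0.0266, 0.078 and 10.8 CPM in HEK293T (log2 fold change -10.18, or -11.86 without it). The quinone reductase gene NQO1 and the UDP-glucose dehydrogenase gene UGDH had medians of 1886 and 822 CPM in A549 and 4.32 and 37 CPM in HEK293T, and GPX2 had 172 and 0.00759 CPM. Among the 6 higher in HEK293T was the efflux pump gene ABCB1, at 19.8, 22.3 and 23.3 CPM in HEK293T and 0.194, 0.229 and 0.493 CPM in A549 (log2 fold change 6.46). GSTM2 was also higher in HEK293T and GSTM4 overlapped, and these glutathione transferase genes share 17.4% and 18.6% of their words with other genes.

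Liver-type genes were on in the lung line. Of 22, 20 were tested, 15 passed higher in A549 and 3 higher in HEK293T, with a median of -5.68. By DESeq2, 10 passed higher in A549, and the other 5 had no adjusted p there. FGA and FGB, chains of fibrinogen that lie side by side on chromosome 4, were at 58.9, 80.9 and 83.8 and at 124, 138 and 181 CPM in A549. In HEK293T, FGA was at 0 in 7 of 12 libraries and at 2.4 CPM in eGFP replicate 3, and FGB was at 0.00996, 0.0209 and 6.1 CPM. Their log2 fold changes were -9.77 and -9.59, and -14.28 and -11.88 without that library. HNF4A, a regulator of hepatocyte genes, had medians of 35 CPM in A549 and 0.148 CPM in HEK293T, and the complement gene C3 had 68.3 CPM against 2.38 CPM. Not all members followed: APOA1, ALB and HP passed higher in HEK293T at medians under 1 CPM, and the transferrin gene TF overlapped (log2 fold change 0.15).

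Innate sensing and cytokine genes were low in HEK293T. Of 21, 20 were tested and 19 passed higher in A549, with a median of -5.71. By DESeq2, 16 passed higher in A549, and the other 3 had no adjusted p there. None passed higher in HEK293T by edgeR, by exactTest or by DESeq2, and 1, NLRP1, was higher there at an unadjusted p under 0.05. CCL2, a chemokine for monocytes, was at 18.3, 21.8 and 28.4 CPM in A549 and 0.0133, 0.0435 and 0.797 CPM in HEK293T (log2 fold change -8.16, or -9.19 without eGFP replicate 3). The cytosolic sensor genes CGAS, RIGI and IFIH1 had A549 medians of 26.4, 86.2 and 26.3 CPM and HEK293T medians of 0.385, 2.52 and 1.45 CPM. IL6, CXCL8 and CXCL1, secreted in inflammation, had changes of -7.16, -6.59 and -6.12. MYD88, the adaptor of Toll-like receptors, was at 28.5, 36 and 76 CPM in A549 and 3.19, 4.47 and 5.02 CPM in HEK293T (log2 fold change -3.23).

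Genes of the G1/S transition differed at single nodes. Of 29, 28 were tested, 9 passed higher in HEK293T and 4 higher in A549, with a median of 0.20. CDKN2A (chr9:21967752-21995301, minus strand), which encodes the inhibitors p16 and ARF, was at 42.5, 55.8 and 77 CPM in HEK293T and 0, 0.0256 and 0.0511 CPM in A549, without overlap (log2 fold change 11.38, standard error 0.20, edgeR adjusted p = 1.98e-23). Its neighbour CDKN2B was at 13, 13.8 and 19.7 CPM in HEK293T and 0, 0.00466 and 0.0689 CPM in A549 (log2 fold change 10.38, and 11.26 without A549 scramble replicate 1). Along the same stretch of chromosome 9, chosen after the values were seen, MTAP had medians of 57.7 CPM in HEK293T and 2.94 CPM in A549, which passed. IFNE, an interferon gene between KLHL9 and MTAP, was higher in A549, at 2.5 against 0.0663 CPM. KLHL9, which lies before them, was at 94.5 and 87.3 CPM and did not pass. DMRTA1, which lies after them, was higher in A549, at 6.07 against 0.62 CPM. The cyclin genes differed as well: CCND1 and CCND3 were higher in A549, at 463, 499.9 and 534 and at 164, 175 and 199.9 CPM against 44.4, 56.1 and 74.2 and 19, 20.6 and 23.9 CPM in HEK293T. CCND2 was higher in HEK293T, at medians of 145 and 0.126 CPM. RB1, the target of the cyclin D kinases, overlapped fully, at 88.9, 102 and 119.7 CPM in HEK293T and 98.4, 103 and 107 CPM in A549.

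Few proliferation genes passed. Of 23, all tested, 2 passed higher in HEK293T and 0 higher in A549, by edgeR, by exactTest and by DESeq2, with 10 higher in A549 at an unadjusted p under 0.05 (median -0.08, or 0.39 with library totals, where 6 and 0 passed). The replication helicase genes MCM2 and MCM3 were higher in HEK293T, at 156, 199 and 212 and at 281, 311 and 327 CPM. In A549 they were at 66.5, 79.8 and 87.2 and at 138, 146 and 152 CPM, without overlap. The mitotic kinase gene PLK1 overlapped, with medians of 98.2 and 105 CPM, and MKI67 had 373 and 529 CPM (log2 fold change -0.54, not past the threshold).

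RNA polymerase III makes snaR-A and other small RNAs. Of 33 RNA polymerase III genes, all tested, 3 passed higher in HEK293T and 2 in A549 (median 0.16, or 0.63 with library totals, where 6 and 1 passed). POLR3GL and POLR3B, subunits of the enzyme, were at 19.7, 24.1 and 32.3 and at 39.8, 53.4 and 60.7 CPM in HEK293T and at 8.47, 9.79 and 10.2 and at 20.6, 21.2 and 23.2 CPM in A549. SNAPC1, of the complex that starts U6 transcription, was higher in A549 at 64.4, 71.1 and 80.6 CPM, against 28.4, 32.7 and 38.3 CPM in HEK293T, and its log2 fold change was -1.13 (-0.67 with library totals, inside the threshold). BDP1 was at 0 in 10 of 12 HEK293T libraries, which is uncertain for the reason given with the zeros. SSB, which binds RNA polymerase III transcripts, did not pass, at medians of 367 CPM in HEK293T and 352 CPM in A549.

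Of 13 RNA polymerase II subunit genes, POLR2F passed higher in HEK293T (43.9 against 21.7 CPM) and POLR2L higher in A549 (68.1 against 25.9 CPM). With library totals 2 passed higher in HEK293T and 0 in A549, where the change of POLR2L was -0.93, inside the threshold. Few core splicing proteins passed. Of 39 snRNP protein genes, 38 were tested, 3 passed higher in HEK293T and 0 higher in A549, by edgeR, by exactTest and by DESeq2, with 14 higher in A549 at an unadjusted p under 0.05 (median 0.27). The count in HEK293T was 5 by DESeq2 and 15 with library totals. U2AF1, which reads the intron's end, was at 124, 133 and 165 CPM in HEK293T and 27.8, 33.8 and 41.7 CPM in A549, but lies in a duplicated stretch of chromosome 21 and is uncertain. SNRPD1, of the Sm ring, was at 208, 229.8 and 254 CPM in HEK293T and 103, 109.6 and 121 CPM in A549 (log2 fold change 1.06). SF3B1, the partner of SF3B2, overlapped at 524, 544 and 624 CPM in HEK293T and 472, 552 and 589.5 CPM in A549. The change of SF3B2 itself, with the plasmid libraries in, was -0.88 (standard error 0.46, edgeR adjusted p = 0.0804), and -0.18 without A549 scramble replicate 3.

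Among splicing regulators restricted to some cell types, all 35 were tested, and 15 passed higher in HEK293T and 7 in A549 (median 0.42, or 0.89 with library totals, where 16 and 5 passed). CELF2, a regulator of brain, heart and blood cells, was at 30.1, 35.6 and 40 CPM in HEK293T and 0.178, 0.287 and 0.435 CPM in A549 (log2 fold change 6.95). The neuronal regulators ELAVL2, MSI1 and CELF4 had HEK293T medians of 28.8, 32.8 and 5.18 CPM and A549 medians of 0.225, 2.09 and 0.099 CPM. RBM47, an epithelial regulator, was higher in A549 at 115, 125 and 137 CPM, against 6.93, 9.02 and 14.6 CPM in HEK293T, and RBM24 had a change of -3.36. MBNL1 and MBNL2, the relatives of MBNL3, were both higher in A549, with log2 fold changes of -1.34 and -1.09, so the family differed in direction by member. PTBP2 was higher in HEK293T (log2 fold change 1.27), PTBP3 higher in A549 (-1.68), and PTBP1 did not pass (0.13).

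Long noncoding RNAs differed slightly more often than coding genes. Of 5637 tested, 1622 passed higher in HEK293T and 1384 higher in A549 (53.3%), against 44.2% of 16671 protein-coding genes. FENDRR, which lies beside FOXF1, was at 7.96, 10 and 11.1 CPM in HEK293T and 0, 0.0022 and 0.0159 CPM in A549 (log2 fold change 11.05). ASNSP1 had medians of 8.62 and 0 CPM, but 55.3% of its words occur in another gene. On the A549 side, IGFL2-AS1 was at 48.2, 53.4 and 61 CPM against a HEK293T median of 0.00549 CPM, and LINC02582 was at 30.1, 33.3 and 48 CPM against 0.0118 CPM (log2 fold changes of -9.13 and -8.75, or -11.78 and -11.61 without eGFP replicate 3).

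Differences were uneven along the genome. Among 13291 protein-coding genes at 1 CPM or more in a line, 19.7% passed higher in HEK293T and 20.04% higher in A549, with a median of -0.04. Chromosome 22 had the highest median (0.81), with 38.4% of 320 genes higher in HEK293T and 10.0% higher in A549, and chromosome 6 followed (0.61, with 36.7% and 13.03%). Chromosomes 20, 17 and 8 had the lowest medians, at -0.53, -0.52 and -0.47, and chromosome 20 had 30.2% of genes higher in A549. Copy number was not measured, and its part in these medians was not tested.

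**Figure D4:**
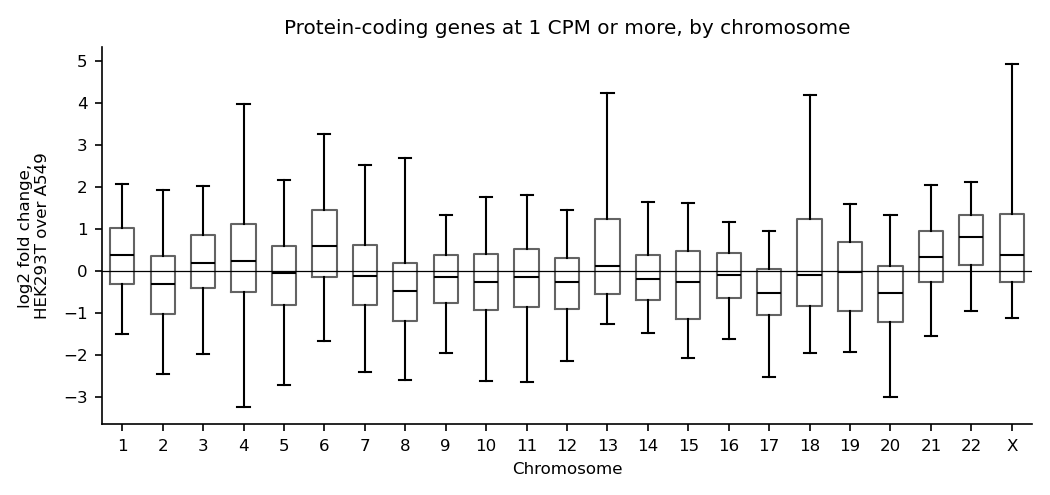
Log2 fold change of HEK293T over A549 for protein-coding genes at 1 CPM or more, by chromosome (boxes span the middle 50% of genes with the median as a line, whiskers the 10th to 90th percentile). The box of chromosome 22 sits highest, with a median of 0.81, and those of chromosomes 20 and 17 lowest, with medians of -0.53 and -0.52.

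Of 461 windows of 5 Mb with at least 10 such genes, the window from 30 to 35 Mb of chromosome 18 had the highest median (3.24) and that from 225 to 230 Mb of chromosome 2 the lowest (-3.17). In the first, 13 of 14 genes passed higher in HEK293T and 0 in A549. They included ASXL3, a chromatin regulator (23.5 against 0.0126 CPM), DTNA, of the dystrophin complex (60.1 against 0.184 CPM), and the ubiquitin ligase genes RNF125 (36.9 against 1.41 CPM) and RNF138 (226 against 32.1 CPM). Among desmosome genes of the same window, DSC3 and DSC2 passed higher in HEK293T, at 115.7 and 87.2 CPM against 11.4 and 10.0 CPM in A549. DSG2 did not pass, at 370.1 and 258 CPM. In the second window, 11 of 14 passed higher in A549 and 0 in HEK293T, among them the insulin receptor substrate gene IRS1 (65.3 against 7.78 CPM in HEK293T), the collagen genes COL4A3 and COL4A4 (16.4 and 26.5 against 0.394 and 2.81 CPM) and TM4SF20 (126 against 0.0059 CPM). IRS1 and IRS4 thus differed in opposite directions. From 20 to 25 Mb of chromosome 19, where zinc finger genes lie in a row, 15 of 20 passed higher in HEK293T and 2 in A549 (median 2.06). ZNF714 had medians of 76.9 and 18.2 CPM, ZNF91 had 14.7 and 1.06 CPM, and ZNF43 was the other way round, at 0.0616 and 8.24 CPM. These windows were picked by their medians, so their values are a description.

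Some zeros in the table cannot be read as absence. Of 12156 protein-coding genes with a median of at least 3 CPM in one line, 54 (0.444%) had a median of 0 in the other, 33 in HEK293T and 21 in A549. Between 28.5 and 33.5 Mb of chromosome 6, which holds the MHC and has several alternate assemblies, the share was 8 of 61 (13.1%). These were TRIM26, TRIM27, GNL1, GTF2H4 and RGL2 in HEK293T and AGPAT1, TAP2 and HLA-DQB1 in A549. Genes that every dividing cell uses were among the zeros: GTF2H4, a subunit of transcription factor TFIIH, had a median of 0 in HEK293T, GTF2H2, another subunit, had a median of 0 in A549, and LSM2 was at 0 in 11 HEK293T and 12 A549 libraries. POLR2A, the large subunit of RNA polymerase II, was at only 0.848 CPM in HEK293T and 1.70 CPM in A549. Of the gene IDs in the table, 5333, with 2.53% of counts, have no record in GENCODE release 44, and 28 of 658 of these at 3 CPM or more in a line (4.26%) had a median of 0 in the other. Whether reads of AGPAT1, TAP2, BDP1, U2AF1 and the others were counted under such IDs was not tested.

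The direction of the line difference was mostly the same with each plasmid for genes past the threshold. Taken within 1 plasmid, 12122 genes passed with scramble, 11926 with snaR-A, 11519 with SF3B2 and 11899 with eGFP, and these contrasts share no library. In 8649 genes (33.4%) the threshold was passed in the same direction with all 4 plasmids, 4332 higher in HEK293T and 4317 in A549. Of the 12283 genes past the threshold over all libraries, 11945 (97.2%) kept the same sign with all 4. They were selected on these same libraries, so a high share follows in part from the selection. With eGFP, where HEK293T replicate 3 is 1 of 3 libraries, fits of those 6 libraries alone gave KRT81, KRT7, AKR1B10, CYP24A1, TM4SF1, AKR1C3 and S100A6 adjusted p-values of 0.0501 to 0.0626 in edgeR, so these missed the threshold there.

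The size of the difference still depended on the plasmid for 10150 genes (39.2%) by edgeR's test of the interaction at an adjusted p under 0.05. Of these, 7410 (73.0%) had the same sign with all 4 plasmids, the median range of their 4 log2 fold changes was 0.658, and 3206 had a range above 1. Only 122 genes passed the threshold in opposite directions with 2 plasmids. LGALS3BP, a secreted glycoprotein induced by interferon, was at 48.3 to 76.3 CPM in A549 with scramble, snaR-A or SF3B2 and at 120.1 to 141 CPM with eGFP, while HEK293T stayed at 10.1 to 16.7 CPM. B2M, the light chain of MHC class I, was at 193 to 248 CPM in A549 with the other plasmids and at 395 to 469.9 CPM with eGFP, and at 121 to 169 CPM in HEK293T. MYD88 was at 74.6 to 76.0 CPM in A549 with eGFP and 28.5 to 39.6 CPM with the others, and LAMP3, a lysosomal membrane protein, at 11.4 to 12.9 CPM and 0.962 to 2.27 CPM. All of these are thus highest in the A549 eGFP libraries.

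In HEK293T, the scramble libraries were the ones that differed most for SLC2A12 and CYP4F3. SLC2A12, a sugar transporter, was at 32.6 to 34.3 CPM with scramble and 14.4 to 16.1 CPM with eGFP, and A549 lay below it with every plasmid. CYP4F3, which breaks down leukotrienes, was at 0.0874 to 0.124 CPM with scramble and 1.74 to 2.42 CPM with eGFP in HEK293T, and at 33.1 to 40.7 CPM in A549. Of the words of CYP4F3, 21% occur in another gene.

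**Figure D5:**
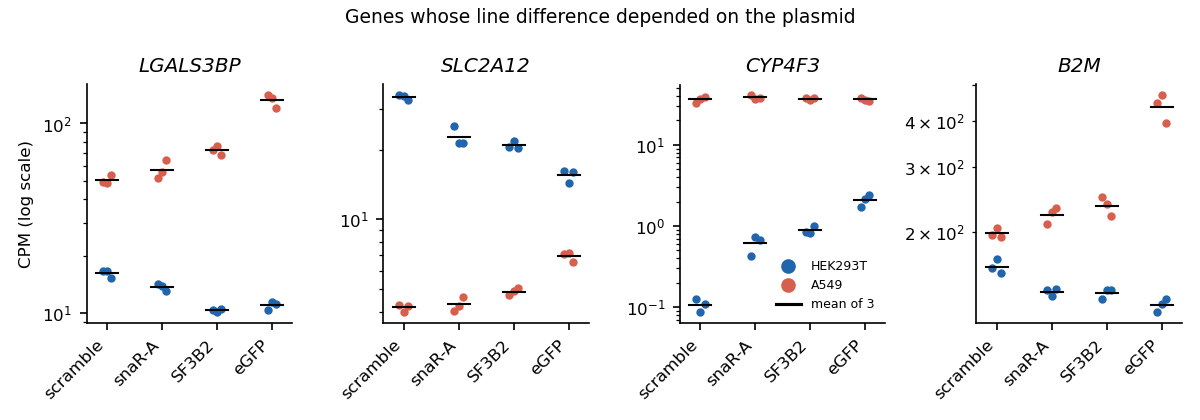
Level of 4 genes in each library by plasmid (CPM, log scale), blue for HEK293T and red for A549, with bars for the mean of 3 replicates. LGALS3BP and B2M are highest in the 3 A549 eGFP libraries, and SLC2A12 and CYP4F3 move in opposite directions across the HEK293T plasmids.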

How the data were processed

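RNA of 24 transfected cultures was sequenced after rRNA depletion and poly(A) selection with a stranded kit. Per the labels and methods, the authors trimmed reads with Trim Galore and estimated transcript levels with Salmon, with hg38 as the build, and the deposited table holds estimated counts per gene. The tool that summed transcripts to genes and the transcriptome release are not given in the sources used here. Of the values, 50.96% were not whole, and all were rounded to whole numbers first. GENCODE release 44 gave symbols and places for 54903 of 60236 gene IDs. Totals were 195185935 to 260878271 counts per library.

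Genes were kept by filterByExpr over the 8 groups of line and plasmid (25923 of 60236), scaled by TMM and fitted in edgeR 4.0.16 (R 4.3.3) with glmQLFit and glmQLFTest on plasmid and line over 24 libraries. Adjusted p-values are Benjamini-Hochberg over all genes tested. The interaction of line and plasmid and the line contrast within each plasmid came from the model of 8 groups. DESeq2 1.42.0, exactTest, glmTreat, other scalings, filters, single plasmids, a replicate block and leaving out each library were alternatives. Scripts were tested on simulated data. Pairing of replicate numbers was checked on 84 pairs of libraries with the same number in different groups. The median correlation of their deviations was -0.0041 (-0.19 to 0.27), against 0.001 for pairs with different numbers. No pairing was seen over all pairs, and pairs within a line were not looked at apart.

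Named genes were the 8 with the largest ratio of medians in each direction (protein-coding, 10 CPM or more), 3 lncRNAs each, and up to 2 members per list and direction with the member nearest to 0. Other genes named were chosen after their values were seen. Members and lists were chosen with earlier results of these data known. Shared sequence is the share of a gene's 31-base transcript words that occur in another gene. No deposited column was left out, and some genes of the lists are not reported here by name. Figures were drawn with matplotlib 3.10.9.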

Additional observations from a re-analysis of the deposited data

Results flagged for a closer look

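The line difference depended on the plasmid in 10150 genes by edgeR's interaction test at an adjusted p under 0.05, and 4 of these genes are given with their log2 fold changes of HEK293T over A549 in the order scramble, snaR-A, SF3B2 and eGFP. LGALS3BP was at -1.63, -2.05, -2.81 and -3.59. SLC2A12 was at 3.01, 2.40, 2.10 and 1.16. CYP4F3 was at -8.39, -5.97, -5.37 and -4.11. B2M was at -0.30, -0.69, -0.79 and -1.79. The interaction is 1 joint test per gene over the 4 plasmids, and single pairs of plasmids were not tested. The sign was the same with all 4 plasmids in each of these 4 genes.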

How the results depend on the processing

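The number of genes past the threshold was 12283, and 10285 to 15990 over all alternatives, with 11936 by DESeq2 (which gave 369 genes no adjusted p), 12216 by exactTest, 10678 by glmTreat and 15990 without a filter on low counts. Leaving out 1 library gave 12546 to 12659 genes, and leaving out both libraries that stood apart gave 12640. A replicate block gave 12297 genes, and 9847 for the interaction and 8606 for all 4 plasmids. Leaving out 1 library gave 8675 to 11683 genes for the interaction and 8518 to 8748 for all 4 plasmids. All of these counts stayed within 1.5 times the main counts. Of 149 named genes, 127 kept their direction and their side of the threshold under every alternative and 22 did not. LAMP3 had a log2 fold change of -2.49 with the eGFP libraries alone and TF of -1.59 with the scramble libraries alone, opposite in sign to all libraries together, and the cause was not tested. Of 52 list counts, 14 moved by more than 1.5 times under some alternative. Fold changes of genes near 0 in a line are limited by depth, since 3 counts are 0.0115 to 0.0154 CPM before TMM scaling. Their size also depends on single libraries.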
